A study of Mus musculus with 2 samples.

Results

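Liver transcripts of 34 genes of the unfolded protein response and the integrated stress response were described in mice given acetoaceto-o-toluidide (AAOT), a compound built on o-toluidine, which is an aromatic amine. The 34 members are a list of symbols from these pathways, drawn up with earlier results of these data known although no measured value enters the rule, and all 34 have a row among the 15526 genes of the deposited table. Female NOG-TKm30 mice aged 22 weeks received AAOT at 0% (control) or 0.3% over 4 weeks, and liver RNA of 3 mice per arm was mixed and sequenced as 1 library. NOG mice are severely immunodeficient, and all mice, controls included, carry a mutant herpes simplex virus thymidine kinase (HSVtk clone 30) driven by the enhancer and promoter of the transthyretin gene, which is active in hepatocytes. The labels give C57BL as strain background as well as the NOG genotype, and these sources do not say by which route AAOT was given. With 1 library per arm there is no spread between mice and no test of the treatment. Each ratio below divides the CPM with AAOT by the CPM in controls (CPM being counts scaled by the authors to the depth of each library), and the range in brackets after it is its exact 95% counting interval, which covers sampling of reads only.

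The unfolded protein response matches the folding capacity of the endoplasmic reticulum (ER) to the load of newly made secretory proteins. The membrane proteins IRE1 (Ern1), PERK (Eif2ak3) and ATF6 sense misfolded protein and act through spliced XBP1, through phosphorylation of eIF2alpha with translation of ATF4, and through a cleaved ATF6 fragment. ATF6 and XBP1 raise chaperones, disulfide isomerases and the machinery of ER-associated degradation (ERAD), while ATF4, which other eIF2alpha kinases also feed in the integrated stress response, raises amino acid, redox and cell death genes. Hepatocytes secrete most plasma proteins and keep a high basal level of this machinery.

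The libraries held 18801241 reads (control) and 16528533 reads (AAOT), recovered from the deposited values. Hepatocyte markers dominated both pools, with 6 of 6 markers above 10 CPM and a summed level of 81115 CPM in controls and 68132 CPM with AAOT. Kupffer cell markers summed to 202 and 224 CPM, sinusoidal endothelial markers to 335 and 335 CPM, stellate cell markers to 284 and 233 CPM and cholangiocyte markers to 44.8 and 35.3 CPM. Lymphocyte and plasma cell markers were near 0, with 2 of 6 listed and sums of 0.377 and 0.418 CPM. Of 5 markers of the exocrine pancreas, another tissue rich in ER chaperones, 3 were listed, with sums of 11.8 and 6.51 CPM that were nearly all Cela1. In bulk RNA, fewer cells of a type and less RNA per cell cannot be told apart, and the part of cell composition in the ratios below was not tested.

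Many of these genes share short control elements in their promoters. ATF6 with NF-Y binds the ER stress response element ERSE (CCAAT, then 9 free bases, then CCACG), and its shorter form ERSE-II is ATTGG, 1 free base, CCACG. ATF4 binds the C/EBP-ATF element TGATGNAA. Both strands of the RefSeq promoter windows on GRCm38.p6, from 250 bases before to 50 bases after the start, were searched for these letters. ERSE stood in the windows of 8 of the 31 members found there (25.8%), against 39 of all 32851 windows (0.119%), and the C/EBP-ATF element in 4 of 31 (12.9%), against 3.97% of all windows. A match describes the letters and is not a measured binding site. The ERSE promoters are shown because they belong to genes of folding and of ERAD (Syvn1) described below, with each ERSE in capitals on the strand of the gene.
Hspa5: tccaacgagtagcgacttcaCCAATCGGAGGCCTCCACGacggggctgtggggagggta
Hsp90b1: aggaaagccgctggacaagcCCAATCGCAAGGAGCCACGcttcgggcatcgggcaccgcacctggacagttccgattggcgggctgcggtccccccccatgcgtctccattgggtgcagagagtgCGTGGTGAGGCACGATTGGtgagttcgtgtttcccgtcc
Dnajc3: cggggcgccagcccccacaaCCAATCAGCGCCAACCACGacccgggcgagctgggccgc
Pdia6: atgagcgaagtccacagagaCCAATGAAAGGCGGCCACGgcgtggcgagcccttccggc
Calr: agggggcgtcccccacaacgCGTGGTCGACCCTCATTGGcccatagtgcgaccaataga
Canx: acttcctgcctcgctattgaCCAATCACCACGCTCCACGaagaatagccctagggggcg
Creld2: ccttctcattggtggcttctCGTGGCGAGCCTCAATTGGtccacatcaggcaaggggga
Syvn1: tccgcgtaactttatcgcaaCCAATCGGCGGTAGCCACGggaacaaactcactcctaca

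The first stretch ends 27 bases before the start of Hspa5 and lies at chr2:34772005-34772063 (+ strand). The others lie at chr10:86705513-86705676 (- strand), chr14:118937807-118937865 (+ strand), chr12:17266471-17266529 (+ strand), chr8:84847055-84847113 (- strand), chr11:50325780-50325838 (- strand), chr15:88819500-88819558 (+ strand) and chr19:6046512-6046570 (+ strand), in the order printed. Hsp90b1 carried 2 matches in opposite orientations, and in Calr and Creld2 the element is reversed, so that it reads CGTGG first. The next 3 are shown because they carry the element of ATF4. Chac1 and Atf3 among them, both with a mean under 10 CPM, had the lowest ratios of all members. Capitals mark the C/EBP-ATF element, which reads TTGCATCA on this strand, and in Herpud1 also its ERSE-II.
Herpud1: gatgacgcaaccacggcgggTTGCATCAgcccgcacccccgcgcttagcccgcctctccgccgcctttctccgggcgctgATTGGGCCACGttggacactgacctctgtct
Chac1: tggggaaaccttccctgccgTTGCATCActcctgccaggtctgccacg
Atf3: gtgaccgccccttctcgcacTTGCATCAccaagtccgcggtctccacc

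They lie at chr8:94386297-94386407 (+ strand), chr2:119351029-119351076 (+ strand) and chr1:191183416-191183463 (- strand). The C/EBP-ATF element of Trib3, the remaining match, begins 14 bases after its start, and the ERSE-II of Dnajb11 begins 7 bases after its start. The UPRE core TGACGTGG, which XBP1 binds, was found in 0 of the 31 members and in 0.676% of all windows.

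**Figure D1:**
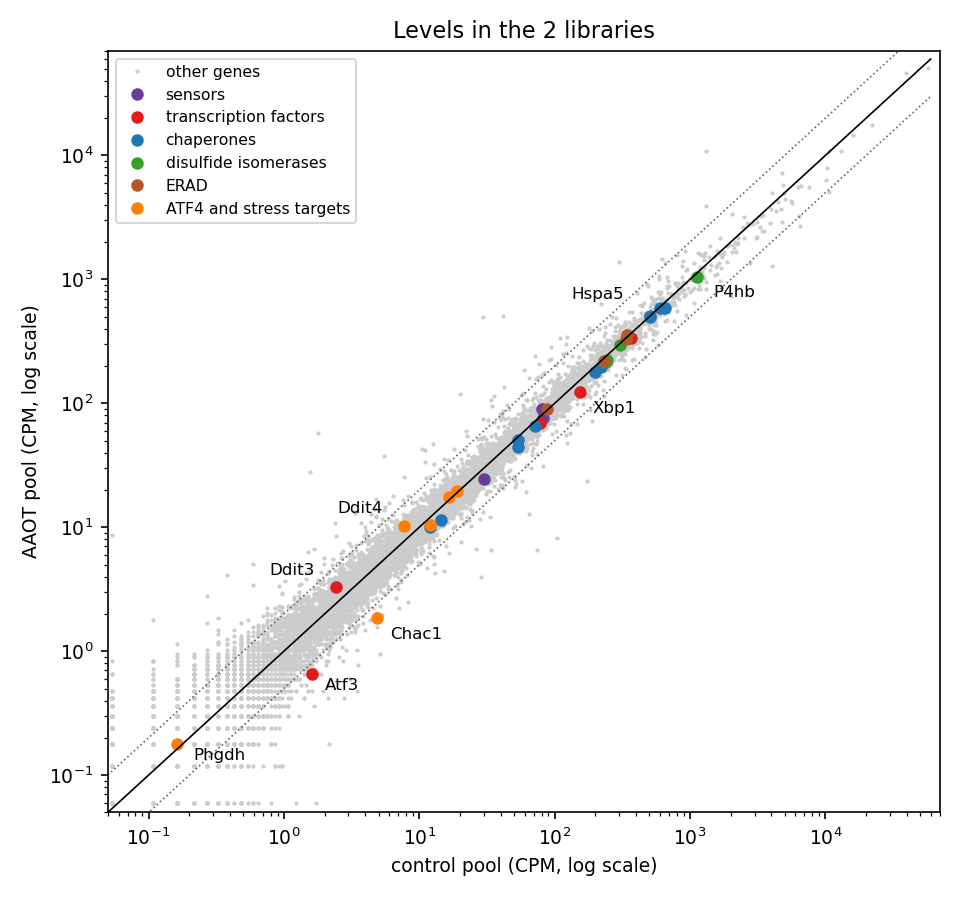
Level of each gene in the control pool (x axis, CPM, log scale) and the AAOT pool (y axis, CPM, log scale), with members coloured by role, other genes in grey, the line of equality solid and 2-fold differences dotted. Genes with 0 reads in either pool are left out, Psat1 among them. Members above 10 CPM lie along the line of equality, while Chac1 and Atf3 lie below the lower dotted line at 1.85 and 0.657 CPM with AAOT.

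The folding machinery of the ER was nearly equal in the pools, with small differences that mostly pointed to lower levels with AAOT. Of the 34 members 28 had a mean of at least 10 CPM, the level from which ratios were counted, and 6 were under it. Of the 28, 0 were at least 2-fold higher and 0 at least 2-fold lower, where 0.773% and 0.425% of all 7761 genes at this level were. Differences of at least 25% (after adding 1 CPM, a ratio of at most 0.8, or at least the inverse of 0.8) were also seen in 0 of 28 in either direction, against 7.02% higher and 5.93% lower among all genes. The log2 ratios of the 28 ranged from -0.31 to 0.17, with a median of -0.11 beside -0.02 for all genes and an SD of 0.12 beside 0.29. Below 0 were 22 of 28 (all genes: 53.6%). Of these Sdf2l1 reaches a mean of 10 CPM only through its control value. Without the authors' scaling factor 19 of 28 were below 0, but the median of all genes was then 0.02, so the share of 53.6% does not apply there. Under the authors' scaling the counting interval lay below 1 for 13 of 28 (all genes: 20.8%) and above 1 for 1 of 28 (all genes: 18.7%). These shares are not like for like, because intervals narrow as reads rise. The SD and the counts at 25% and 2-fold have the same limit, because ratios scatter less as reads rise. A mean of at least 50 CPM was reached by 21 of the 28, against 3030 of all 7761 genes. Together the 34 members took 0.657% of control reads and 0.639% of AAOT reads.

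**Figure D2:**
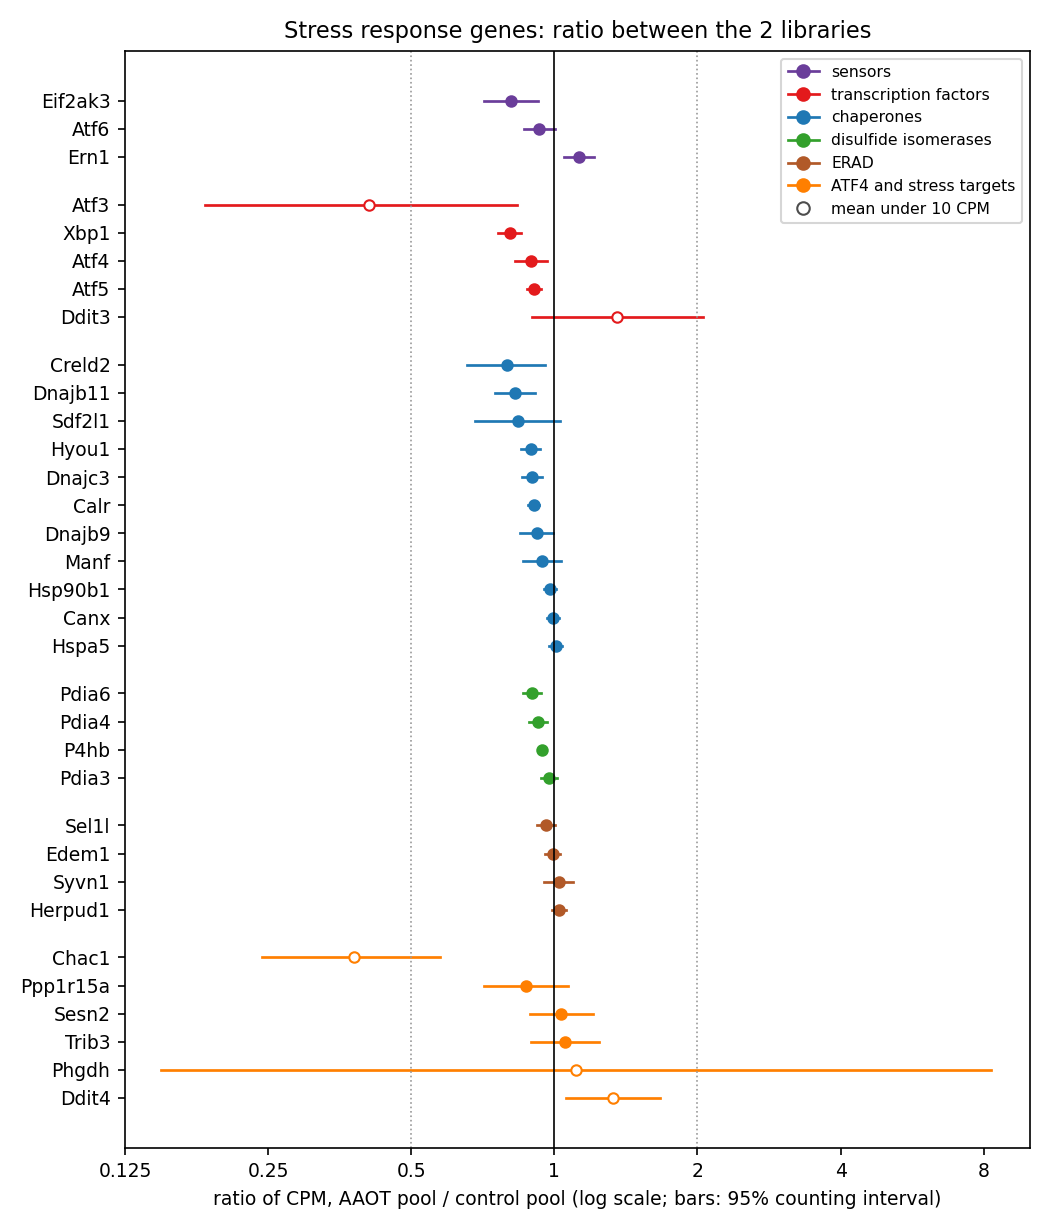
Ratio of CPM with AAOT to CPM in controls (x axis, log scale) for 33 members grouped by role, with bars for the 95% counting interval, open circles for means under 10 CPM and dotted lines at 2-fold. Psat1 has no ratio because its control pool held 0 reads. Filled circles run from Creld2 at 0.793 to Ern1 at 1.13, and Chac1 and Atf3 stand apart on the low side with wide bars.

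Among the 3 sensors, PERK and IRE1 transcripts differed in opposite directions. Eif2ak3 (PERK) was at 30.1 CPM in controls and 24.4 CPM with AAOT, a ratio of 0.810 (0.711 to 0.922). Ern1 (IRE1alpha) was at 80.1 CPM in controls and 90.4 CPM with AAOT, a ratio of 1.13 (1.05 to 1.21). Under the authors' scaling it was the sole member above 10 CPM whose interval lay above 1. Atf6 was at 82.2 CPM in controls and 76.4 CPM with AAOT, with an interval that reached 1 at 0.929 (0.862 to 1.002). All 3 proteins are controlled mainly after translation, so these levels are those of the transcripts and not of sensor activity.

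The transcription factor genes were lower or low. Xbp1 (chr11:5520641-5525993, GRCm38.p6) was at 153 CPM in controls and 123 CPM with AAOT, a ratio of 0.806 (0.761 to 0.853), and at percentile 6.71 of the log2 ratios of all genes above 10 CPM it was the second lowest of the 28. The table gives 1 value per gene and does not separate spliced from unspliced Xbp1. Atf4 was at 77.8 CPM in controls and 69.5 CPM with AAOT, at 0.894 (0.827 to 0.966), and its relative Atf5, a factor that is translated under the same eIF2alpha control and is abundant in liver, at 368 CPM in controls and 334 CPM with AAOT, at 0.906 (0.874 to 0.939). Both intervals lay below 1, and both differences were about as small as those of the chaperones. Ddit3 (CHOP), the factor tied to cell death in prolonged ER stress, was scarce, with 45 reads in controls and 55 with AAOT, and its ratio of 1.36 (0.898 to 2.06) had an interval that included 1. Atf3, a stress-induced repressor and activator downstream of ATF4, had 30 reads in controls and 11 with AAOT, a ratio of 0.407 (0.184 to 0.835) on very few reads.

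All but 1 of the 11 ER chaperones and their cofactors had a lower value with AAOT, and Hspa5, Hsp90b1 and Canx, 3 of the 4 most abundant by CPM, differed within counting error (all genes below 0: 53.6%). Hspa5 (BiP, the central Hsp70 of the ER lumen and a common readout of ER stress, chr2:34772090-34776529, GRCm38.p6) was at 508 CPM in controls and 511 CPM with AAOT, a ratio of 1.01 (0.977 to 1.04). Hsp90b1 (GRP94) was at 601 CPM in controls and 589 CPM with AAOT, at 0.979 (0.953 to 1.01), and Canx (calnexin, the membrane lectin chaperone) at 504 CPM in controls and 501 CPM with AAOT, at 0.993 (0.964 to 1.02). These 3 intervals include 1 and exclude a difference of 10% in either direction, so at this depth counting error is not what limits them. They hold for the authors' scaling, and without its factor the ratio of Hspa5 was 1.03. Calr (calreticulin, the lumenal counterpart of calnexin) was lower, at 651 CPM in controls and 589 CPM with AAOT, a ratio of 0.905 (0.881 to 0.929).

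Values of the BiP cofactors and the remaining genes of this group ran from the ratio of Creld2 to that of Manf. Dnajb11 (ERdj3, which hands unfolded clients to BiP) was at 53.5 CPM in controls and 44.2 CPM with AAOT, a ratio of 0.826 (0.7498 to 0.909). Dnajc3 (p58IPK, a BiP cochaperone that also restrains PERK) was at 199 CPM in controls and 178 CPM with AAOT, at 0.898 (0.855 to 0.943). Hyou1 (GRP170, a nucleotide exchange factor of BiP) was at 219 CPM in controls and 195 CPM with AAOT, at 0.892 (0.851 to 0.934). Each of these 3 intervals lay below 1. Dnajb9 (ERdj4, a target of XBP1 that represses IRE1) was at 71.1 CPM in controls and 65.3 CPM with AAOT, at 0.918 (0.847 to 0.996). Creld2, a small secreted and ER-resident target of ATF6, had the lowest ratio of the 28, at 0.793 (0.656 to 0.958), with 14.5 CPM in controls and 11.5 CPM with AAOT. Sdf2l1, part of the BiP complex with Dnajb11, was at 11.9 CPM in controls and 9.98 CPM with AAOT, and Manf, a secreted ER stress protein that binds BiP, at 53.7 CPM in controls and 50.5 CPM with AAOT. Their intervals, 0.839 (0.682 to 1.03) and 0.940 (0.857 to 1.03), included 1. Sdf2l1 reached a mean of 10 CPM only through its control value. With a floor of 50 CPM, which leaves it out, 7 of 8 chaperones were below 0, with a median of -0.10 (all genes: -0.002). The median log2 ratio of the 11 was -0.14, and 6 of 11 intervals lay below 1 (all genes: 20.8%, with the same limit of unlike depth). Without the authors' scaling factor 8 of the 11, rather than 10, were below 0, because Hspa5 was joined there by the nearly equal Canx and Hsp90b1. The median of all genes was 0.02 under that scaling.

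The 4 disulfide isomerases, which form and shuffle disulfide bonds in secretory proteins, had log2 ratios below 0 under the authors' scaling (all genes: 53.6%). Their signs stayed the same under each of 5 other scalings, although Pdia3 came to equality under 1 of them. P4hb (PDI) had the highest level per transcript length of all members, 391 CPM per kilobase of merged exons in controls. It was at 1118 CPM in controls and 1053 CPM with AAOT, a ratio of 0.942 (0.923 to 0.961), or 0.965 without the authors' scaling factor. Pdia6 was at 240.4 CPM in controls and 216 CPM with AAOT, at 0.898 (0.859 to 0.938), and Pdia4 at 243 CPM in controls and 225 CPM with AAOT, at 0.925 (0.886 to 0.966). Pdia3 (ERp57, the partner of calnexin and calreticulin) was at 305 CPM in controls and 297 CPM with AAOT, at 0.975 (0.939 to 1.01), the 1 of the 4 whose interval included 1. Without the authors' scaling factor its ratio was 0.9998. The median log2 ratio of the 4 was -0.10.

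Under the authors' scaling the 4 ERAD genes differed within counting error. Herpud1, which organises the degradation complex and is among the most ER stress-responsive genes, was at 345 CPM in controls and 353 CPM with AAOT, a ratio of 1.02 (0.987 to 1.06). Syvn1 (HRD1, the ubiquitin ligase) was at 87.9 CPM in controls and 89.9 CPM with AAOT, at 1.02 (0.952 to 1.10), and Sel1l (its partner) at 231 CPM in controls and 221 CPM with AAOT, at 0.959 (0.917 to 1.002). Edem1, which directs misfolded glycoproteins to degradation, was at 335 CPM in controls and 332 CPM with AAOT, at 0.991 (0.956 to 1.03). All 4 intervals included 1, that of Sel1l only just, and the median log2 ratio was 0.01. Most genes above 10 CPM also had an interval that included 1 (20.8% lay below 1 and 18.7% above), with the same limit of unlike depth. Without the authors' scaling factor the ratio of Herpud1 was 1.05.

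The 7 ATF4 and stress targets did not share a direction, and 4 of them were under 10 CPM. Trib3, a pseudokinase that feeds back on ATF4, was at 16.5 CPM in controls and 17.4 CPM with AAOT, a ratio of 1.05 (0.893 to 1.24). Sesn2, an inhibitor of mTORC1, was at 19.1 CPM in controls and 19.8 CPM with AAOT, at 1.03 (0.888 to 1.21). Ppp1r15a (GADD34, the stress-induced subunit that dephosphorylates eIF2alpha) was at 12.1 CPM in controls and 10.5 CPM with AAOT, at 0.872 (0.712 to 1.07). The intervals of these 3 included 1.

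Chac1, a glutathione-degrading enzyme and a sensitive target of ATF4 and CHOP (chr2:119351242-119354326, GRCm38.p6), stood apart. It had 91 reads in controls and 31 with AAOT, which is 4.90 CPM in controls and 1.85 CPM with AAOT, a ratio of 0.378 (0.243 to 0.574) or 2.65-fold lower. After adding 1 CPM its log2 ratio was -1.05, past 2-fold. Ddit4 (REDD1), an mTORC1 inhibitor that glucocorticoids, hypoxia and p53 also induce, went the other way with 144 reads in controls and 172 with AAOT, a ratio of 1.33 (1.06 to 1.67). The serine synthesis enzymes, which ATF4 induces in many cells, were almost silent. Phgdh had 3 reads in each pool, a ratio of 1.11 (0.149 to 8.28), and 36.9% of its stretches of 50 bases occur in no other gene (89.98% or more for every other member). Psat1 had 0 control reads, which allows up to 0.162 CPM, and 5 reads with AAOT. Of the 6 members under 10 CPM, 1 was at least 2-fold lower and 0 were at least 2-fold higher, against 0.348% and 0.438% of genes at that level. At 25% the counts were 2 lower (Chac1 and Atf3; all such genes 9.57%) and 3 higher (Ddit3, Ddit4 and Psat1; 11.7%).

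The 8 genes with an ERSE had log2 ratios from -0.31 (Creld2) to 0.03 (Syvn1) and a median of -0.09. The median was -0.11 for the 17 members above 10 CPM whose searched windows held no ERSE. Members for which no window was found are in neither group. Of the 4 members with a C/EBP-ATF element, Chac1 and Atf3, both under 10 CPM, were the 2 lowest of the 34. Trib3 and Herpud1, both above it, were at 1.05 and 1.02. All 153 genes above 10 CPM with this element had a median log2 ratio of 0.02. Values of genes with this element lay on both sides of equality.

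Other genes of the same pathways that are not members were for the most part also near equality. As above, differences of 25% were counted after adding 1 CPM, so that a gene whose printed ratio lies just past that size, such as Svip or Sec61b, is not counted. Of 15 other sensor and eIF2 control genes above 10 CPM, 0 differed by 25% and the median was -0.11. The lowest was Creb3l3 (CREBH, a liver factor cleaved like ATF6), at 320.4 CPM in controls and 259 CPM with AAOT, a ratio of 0.807 (0.776 to 0.840). The site-1 protease Mbtps1, which cleaves ATF6 first, was at 0.884 (0.825 to 0.947). The site-2 protease Mbtps2, which completes the cleavage and had the highest log2 ratio of this list, was at 1.14 (0.963 to 1.34). Of 19 other ER folding genes 0 differed by 25%, with a median of -0.08. Ppib (cyclophilin B) was at 0.855 (0.806 to 0.907) and Erp29 at 0.870 (0.772 to 0.980), both with less than 90% of stretches unique to the gene. Of 20 other ERAD genes 0 differed by 25%, with a median of -0.01 that turned to 0.03 without the authors' factor. The lowest and highest of them were Vimp (selenoprotein S), at 0.810 (0.721 to 0.909), and Svip, an inhibitor of ERAD, at 1.253 (1.04 to 1.52). The 22 genes of the translocon, signal peptidase and oligosaccharyltransferase had a median of -0.07 and 0 that differed by 25%, with Sec61b at 0.797 (0.704 to 0.900) and Sec62 at 0.832 (0.782 to 0.884), of whose stretches 84.7% and 88.2% are unique. The 12 cytosolic aminoacyl-tRNA synthetases, many of which ATF4 induces, were below 0 in 10 cases (all genes: 53.6%), with a median of -0.12, Mars at 0.862 (0.786 to 0.945) and Sars at 0.865 (0.780 to 0.960). Of 6 transcripts known to be cut by IRE1, 3 were above 10 CPM, with a median of -0.07 and with Hgsnat at 0.919 (0.849 to 0.995) and Pdgfrb at 0.948 (0.799 to 1.13).

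Further ATF4 targets lay farther apart. Of 11 above 10 CPM 4 were at least 25% higher and 1 at least 25% lower, against 7.02% and 5.93% of all genes, and the median was 0.14, or 0.056 when the 9 listed genes under 10 CPM were included. Gdf15 is among the 4 only through its level with AAOT, and without it 3 of 10 were higher. Gdf15, a stress cytokine that p53 and CHOP also induce, was at 6.41 CPM in controls and 17.9 CPM with AAOT, a ratio of 2.79 (2.25 to 3.48). Cth, which makes cysteine from cystathionine, was at 236 CPM in controls and 371 CPM with AAOT, at 1.57 (1.51 to 1.63). Gpt2, the mitochondrial alanine transaminase, was at 294 CPM in controls and 429 CPM with AAOT, at 1.46 (1.41 to 1.51), and Vldlr, a lipoprotein receptor, at 20.8 CPM in controls and 29.7 CPM with AAOT, at 1.43 (1.248 to 1.64). Cebpg, the dimer partner of ATF4, was lower, at 77.8 CPM in controls and 60.4 CPM with AAOT, a ratio of 0.776 (0.716 to 0.842). Under 10 CPM, and named after its values were seen, the hormone gene Fgf21 had 53 reads in controls and 17 with AAOT, a ratio of 0.356 (0.193 to 0.625). Named likewise, Aldh18a1, an enzyme of proline synthesis, differed the other way, with 17 reads in controls and 29 with AAOT, a ratio of 1.89 (1.01 to 3.67). Of the 9 genes of this list under 10 CPM, 2 (Fgf21 and Pycr1) were at least 25% lower and 1 (Aldh18a1) at least 25% higher, against 9.57% and 11.7% of genes at that level. The amino acid synthesis gene Asns, a standard readout of ATF4 named on the same ground, was almost silent, with 2 reads in controls and 1 with AAOT. Gpt2, Vldlr, Cebpg and Pycr1 are named because the counts above include them. Pycr1 had 9 reads in controls and 3 with AAOT, a ratio of 0.370 (0.064 to 1.48) whose interval included 1.

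**Figure D3:**
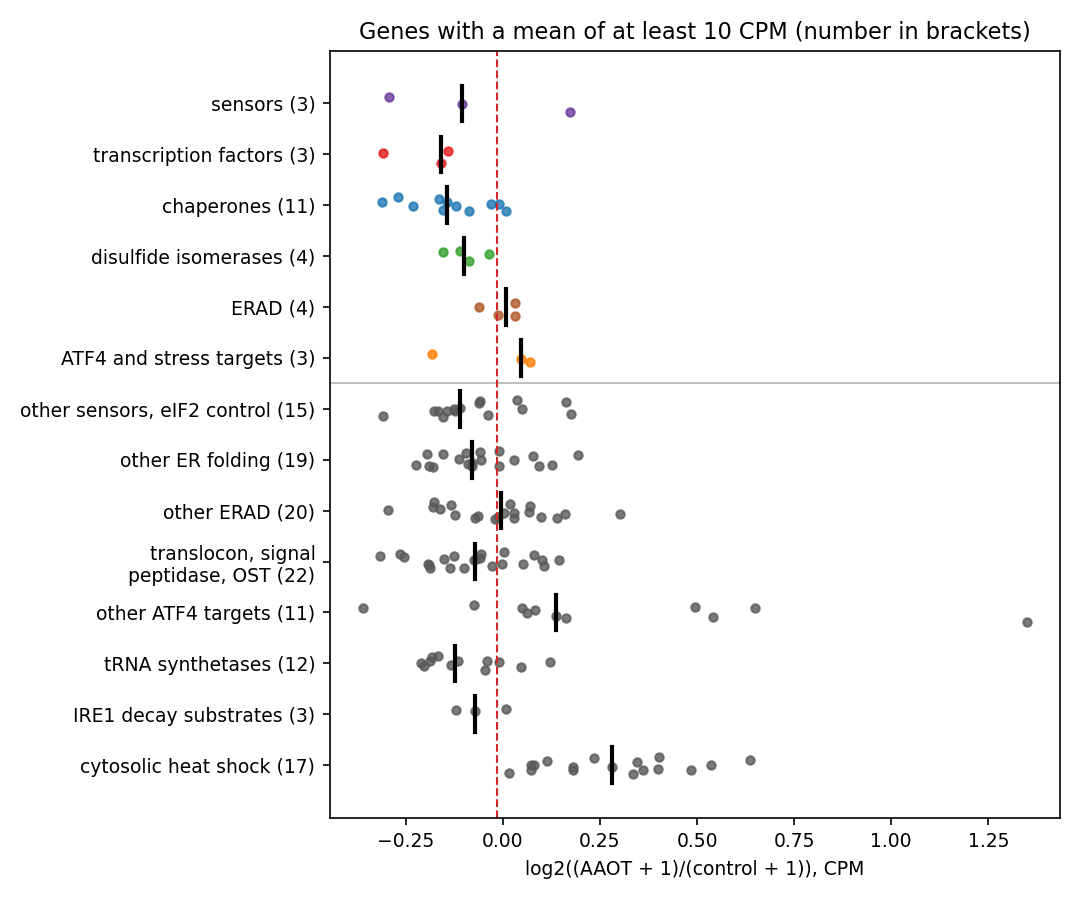
Log2 ratio of AAOT to control after adding 1 CPM (x axis) for members by role (colours, upper part) and for the wider lists (grey, lower part), 1 point per gene with a mean of at least 10 CPM, a black bar for each list's median and a dashed red line for the median of all genes at -0.02. Vertical scatter within a list has no meaning. Chaperones and isomerases sit left of the dashed line as groups, with medians of -0.14 and -0.10, and cytosolic heat shock genes sit right of it, with a median of 0.28.

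Heat shock genes of the cytosol, which answer to misfolded protein outside the ER through HSF1, differed in the opposite direction to the ER chaperones. All 17 above 10 CPM had a log2 ratio above 0 under the same 6 scalings (all genes: 46.4%), 8 of 17 were at least 25% higher (all genes: 7.02%), 0 were at least 2-fold higher and the median was 0.28. Of the 8, Hspa1b, Hsp90aa1 and Hspb1, named for this limit, had only 37.7%, 41.5% and 48.4% of stretches unique to the gene. The same holds for Hspa8 (47.3%) and Dnaja1 (71.2%) among the 17, so reads of related genes may be mixed in their values. The counting interval lay above 1 for 13 of the 17 (all genes: 18.7%, with the same limit of unlike depth). Dnajb4, named because it was nearest to equality, was at 1.01 (0.904 to 1.13). This list, like the members, was chosen with earlier results of these data known. Hspa4l, an Hsp110 family member, was at 15.0 CPM in controls and 23.9 CPM with AAOT, a ratio of 1.59 (1.36 to 1.86). Hspb8, a small heat shock protein, was at 119 CPM in controls and 173 CPM with AAOT, at 1.45 (1.37 to 1.54), and its partner Bag3, picked once its values were known, at 31.6 CPM in controls and 42.1 CPM with AAOT, at 1.33 (1.19 to 1.49). The cytosolic Hsp90 gene Hsp90ab1, the counterpart of Hsp90b1 and likewise picked once its values were known, was at 597 CPM in controls and 767 CPM with AAOT, at 1.29 (1.253 to 1.32), beside 0.979 (0.953 to 1.01) for Hsp90b1. These are 2 libraries, so whether the ER and cytosolic groups differ between animals was not tested.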

How the data were processed

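Liver RNA of 2 pools was sequenced after depletion of ribosomal RNA, as directional libraries from 200 ng, per the labels' protocols. The deposited values are CPM, scaled by the authors. Trimmomatic 0.38, Bowtie2, RSEM, edgeR and the build mm10 are named in the submitters' processing notes, with no role for any; no annotation is named in these sources. All values (100%) were whole multiples of 1 step per column, within 1e-06, which gave back 18801241 and 16528533 reads and showed a scaling factor of 0.988 (control) and 1.012 (AAOT) in the authors' CPM. Each pool mixed 3 mice and gave 1 library. With 1 library per arm there is no spread between libraries, so no count model was fitted and no p-value was computed.

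Log2 ratios were taken after adding 1 CPM, which understates the change of low genes. Genes with a mean of at least 10 CPM were counted. Intervals are exact 95% intervals (Clopper-Pearson, conditional on the sum of reads). They treat reads as independent molecules and leave out differences between mice and preparations. The members and gene lists were chosen with earlier results of these data known. All 34 members are reported. Of each wider list the 2 genes above the floor farthest from equality, and all at least 1.5-fold different, were to be named, and others only where the text says so. Older symbols were matched through RefSeq synonyms. Unique 50-base stretches were counted on the longest GENCODE M21 transcript against all other genes, and levels per length used merged GENCODE M21 exons. The steps were tested on simulated reads. Computation used scipy 1.17.1 with numpy 2.4.6 and pandas 2.3.3 in Python 3.11.15, and figures matplotlib 3.10.9.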

Additional observations from a re-analysis of the deposited data

How the results depend on the processing

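The comparison was repeated with 5 other scalings, added constants of 0.1 and 5 CPM, floors of 1 and 50 CPM and none, and a size of 1.5-fold. The same settings for the wider lists were chosen after seeing the data. The median log2 ratio of the members ranged from -0.11 to -0.07, that of the chaperones from -0.15 to -0.10, that of the isomerases from -0.11 to -0.06, that of the cytosolic heat shock genes from 0.26 to 0.32 and that of the further ATF4 targets from 0.056 (no floor, 20 genes) to 0.17. Lower floors let in members under 10 CPM. With a floor of 1 CPM, 1 member was at least 2-fold lower, 2 were at least 25% lower and 2 at least 25% higher, and with no floor these counts were 1, 2 and 3. With an added constant of 0.1 CPM, 1 member, Creld2, was at least 25% lower. The sensor median turned to 0.034 with a floor of 50 CPM, which leaves 2 genes. The median of the other ERAD genes turned to 0.029 with plain library totals, to 0.0093 with a total without the 20 most abundant genes and to 0.0097 with the median of all genes set to 0. Scalings moved the median of all genes by less than 0.1. Counting intervals were computed under the authors' scaling only, so those that end near 1 may cross it under another. No paired analysis was possible because each arm has 1 library. The low read numbers of Atf3, Ddit3, Psat1 and Phgdh limit what their ratios can show.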
